A study of Oryctolagus cuniculus with 6 samples.

Results

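A set of 10 genes of antigen processing and presentation was followed in the rabbit facial nerve, out of the 17396 genes in the count files. They were taken by gene symbol for their place in the pathway, with no threshold on their values but with earlier results of these data known. The 7 class I genes are PSMB8, PSMB9, TAP1, TAP2, TAPBP, B2M and NLRC5. The 3 class II genes are CIITA, CD74 and CTSS. The FNI and FNI+I-125 groups, with 3 libraries each, were compared, all from wild type male Japanese white rabbits aged 3 to 4 months whose facial nerve had been cut. The FNI group had facial nerve injury by transection alone. The FNI+I-125 group had the same transection and a radioactive iodine-125 seed of 0.8 mCi implanted near the nerve. Nerves of both groups were taken on day 14, so no library shows an uninjured nerve, and the sham group was not analysed here. The tissue was a whole nerve piece with all its cell types.

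Class I molecules display peptides from inside the cell to CD8 T cells. The proteasome cuts cytosolic proteins into peptides, the TAP transporter carries them into the endoplasmic reticulum, and the loading complex places them on a heavy chain that is held by beta-2-microglobulin. Class II molecules display peptides from endosomes to CD4 T cells, mainly on macrophages, dendritic cells and B cells. Interferon gamma is known to switch on both routes, class I through NLRC5 and class II through CIITA. In a cut nerve, macrophages enter and clear myelin debris, and Schwann cells can also express class II molecules.

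Total counts ran from 16031151 to 16798012 per library. The nerve pieces differed in what they held. The summed level of 8 Schwann cell markers was 3859 to 30251 counts per 1000000 counted reads (CPM) in the FNI libraries, against 682 to 3456 CPM in the FNI+I-125 libraries. Skeletal muscle markers summed to 5067 and 4341 CPM in FNI+I-125 replicates 1 and 2, against 17.5 CPM in replicate 3 and 23.9 to 79.8 CPM in the FNI libraries. Salivary gland markers summed to 49204 CPM in FNI replicate 2, with DNASE1 alone at 48086 CPM, and to 688 to 3345 CPM in the other 5 libraries. In FNI replicate 3 and FNI+I-125 replicates 2 and 3, CST3 alone was at 666, 1811 and 939 CPM. DNASE1 was at 15.8, 16.2 and 13.4 CPM there, so these sums do not measure gland tissue alone. Each of the 3 FNI+I-125 libraries, replicate 3 included, lay above every FNI library for 10 of the 10 genes. The part of these tissues in the values below was not tested.

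The mRNA of 10 of the 10 genes was higher in the FNI+I-125 group, by 1.70-fold for TAPBP to 3.87-fold for CTSS. For each of the 10 genes, the 3 FNI+I-125 libraries lay above the 3 FNI libraries. Such a separation toward higher values was seen in 14.8% of the 14003 genes tested. By edgeR's quasi-likelihood test, 8 of the 10 genes had an unadjusted p under 0.05, against 9.23% of the genes tested that were higher at that p. These shares are a description only, since the 10 genes were chosen with earlier results of these data known. After Benjamini-Hochberg adjustment over all genes, the adjusted p was 0.280 for the 7 class I genes, 0.281 for CTSS, 0.331 for CIITA and 0.334 for CD74. With an adjusted p under 0.05 and a log2 fold change of at least 1.5 as the threshold, 0 of the 10 genes were called, and 0% of the genes tested were called higher. By DESeq2, TAP1 alone among the 10 passed both thresholds, against 2.08% of all genes, and TAP1, TAP2, B2M and PSMB8 had an adjusted p under 0.05, against 3.86% of all genes. The p-values measure the spread between 3 rabbits a group. Differences are therefore given as higher or lower, with the values of each library.

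**Figure D1:**
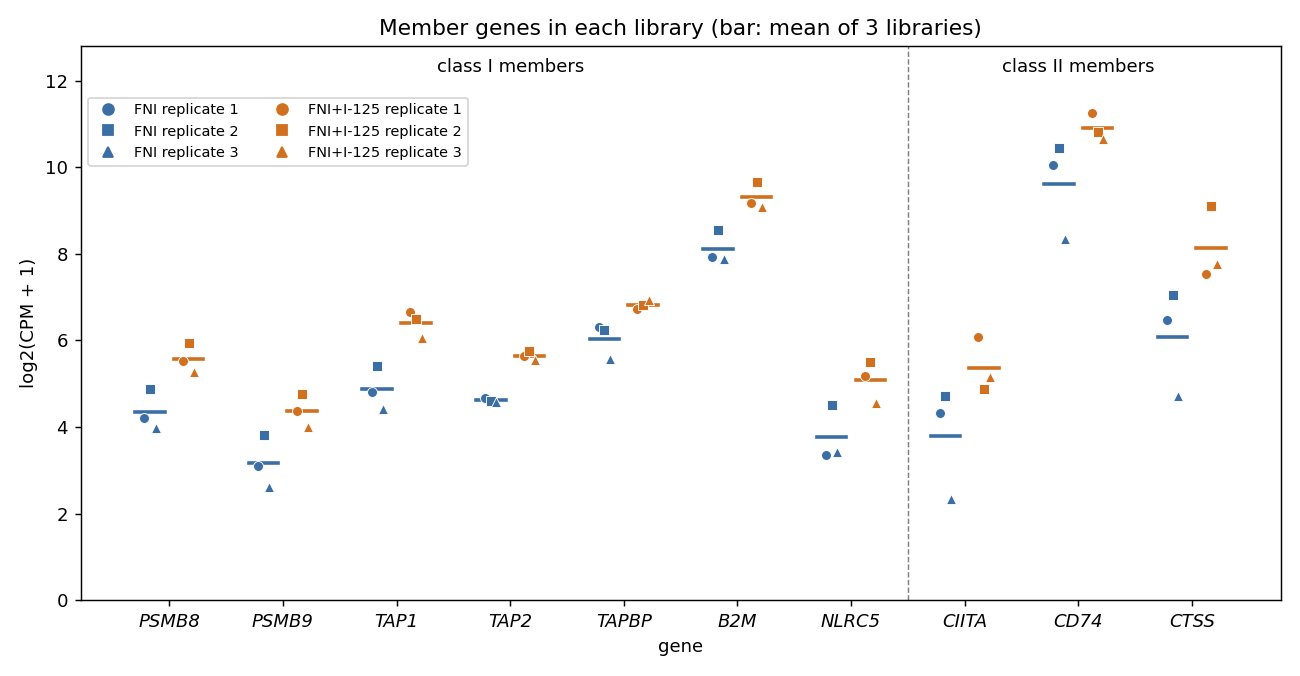
Level of each of the 10 genes in each library, as log2(CPM + 1), with FNI libraries in blue, FNI+I-125 libraries in orange, a marker shape for each replicate number and a bar at the mean of 3 libraries. For every gene the 3 FNI+I-125 libraries lie above the 3 FNI libraries, and the FNI libraries are spread farthest for CIITA, CD74 and CTSS.

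PSMB8 and PSMB9 code for inducible catalytic subunits that replace constitutive ones to form the immunoproteasome. PSMB8 was at 17.5, 28.5 and 14.8 CPM in FNI replicates 1, 2 and 3 and at 45.4, 60.4 and 37.7 CPM in FNI+I-125 replicates 1, 2 and 3. Its groups were apart, with the lowest FNI+I-125 library 1.32 times the highest FNI library. The log2 fold change of PSMB8 was 1.24 (SE 0.31), with an unadjusted p of 0.00676 by edgeR. PSMB9 was at 7.50, 13.1 and 5.14 CPM in the FNI libraries and at 19.6, 26.2 and 14.9 CPM in the FNI+I-125 libraries. The log2 fold change of PSMB9 was also 1.24, with a larger SE of 0.40 and an unadjusted edgeR p of 0.0216. The gap between the groups was narrower than for PSMB8, since FNI replicate 2 reached 13.1 CPM and the lowest FNI+I-125 library was only 1.13 times that value. In both genes replicate 2 was the highest library of its group.

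TAP1 and TAP2 code for the chains of the peptide transporter of the endoplasmic reticulum. TAP1 was at 26.9, 41.4 and 20.2 CPM in the FNI libraries, from 342 to 657 counts. In the FNI+I-125 libraries it was at 100.2, 89.2 and 65.2 CPM, from 1111 to 1533 counts. The largest difference among the class I genes was that of TAP1, at 2.88-fold (log2 fold change 1.52, SE 0.31, unadjusted p of 0.00256 and adjusted p of 0.280 by edgeR). TAP2 was nearly level within each group, at 24.4, 23.3 and 22.9 CPM in the FNI libraries and at 48.5, 53.1 and 45.7 CPM in the FNI+I-125 libraries. Its difference was 2.08-fold, smaller than that of TAP1, but its SE was only 0.11 on the log2 scale. With an unadjusted edgeR p of 8.5e-05, TAP2 ranked 3 among the 14003 genes tested. The chains of one transporter thus gave the steadiest value and the largest value of the class I route, and the log2 fold change of TAP2 was 0.97 to 1.10 over 15 alternatives while that of TAP1 was 1.30 to 1.85.

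By the order of protein-coding genes in RefSeq for the rabbit assembly mOryCun1.1, PSMB9, TAP1, PSMB8 and TAP2 follow each other, next to RLA-DMA and RLA-DMB. Only protein-coding genes of that assembly were ordered. That assembly is another build than the files, so no coordinates are given, and the order is given as annotation only.

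TAPBP codes for tapasin, which bridges the TAP transporter and the empty class I molecule. TAPBP was at 78.7, 74.5 and 46.2 CPM in the FNI libraries and at 104, 112 and 121 CPM in the FNI+I-125 libraries. It showed the smallest difference of the 10 genes, at 1.70-fold (log2 fold change 0.76, SE 0.22, unadjusted p of 0.0136 and adjusted p of 0.280 by edgeR). B2M codes for beta-2-microglobulin, the light chain of every class I molecule. B2M was at 242, 371 and 233 CPM in the FNI libraries and at 576, 807 and 546 CPM in the FNI+I-125 libraries. With 3945 to 13264 counts per library, counting error is small for B2M, and its difference was 2.28-fold (log2 fold change 1.19, SE 0.26, unadjusted p of 0.00413 and adjusted p of 0.280 by edgeR).

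NLRC5 codes for the transactivator that acts on class I promoters, including those of B2M, TAP1 and PSMB9. NLRC5 was at 9.25, 21.9 and 9.75 CPM in the FNI libraries and at 34.9, 44.5 and 22.6 CPM in the FNI+I-125 libraries. The groups nearly met, since FNI+I-125 replicate 3 was only 1.03 times FNI replicate 2. The log2 fold change of NLRC5 was 1.32 (SE 0.43, unadjusted p of 0.0216 and adjusted p of 0.280 by edgeR). With 1 library left out at a time, NLRC5 kept an unadjusted p under 0.05 in 2 of 6 fits and PSMB9 in 4 of 6, while PSMB8, TAP1, TAP2, TAPBP and B2M did in 6 of 6. The fits that kept NLRC5 were those without FNI replicate 2 and without FNI+I-125 replicate 3, and PSMB9 lost that p without FNI replicate 1 and without FNI+I-125 replicate 2.

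CIITA codes for the class II transactivator, on which class II promoters depend. CIITA was at 19.2, 25.3 and 4.02 CPM in the FNI libraries, with only 68 counts in replicate 3, and at 66.5, 28.3 and 34.5 CPM in the FNI+I-125 libraries. The FNI libraries differed 6.30-fold among themselves, the widest spread of the 10 genes, and the lowest FNI+I-125 library was 1.12 times the highest FNI library. The log2 fold change of CIITA was 1.42 (SE 0.69, unadjusted p of 0.0851 and adjusted p of 0.331 by edgeR). Without FNI replicate 3 it was 0.94.

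CD74 codes for the invariant chain, which fills the peptide groove of class II molecules until they reach the endosome. CD74 was at 1057, 1388 and 323 CPM in the FNI libraries and at 2451, 1794 and 1613 CPM in the FNI+I-125 libraries. The low library was again FNI replicate 3, and the FNI libraries differed 4.29-fold. The log2 fold change of CD74 was 1.08 (SE 0.53, unadjusted p of 0.0896 and adjusted p of 0.334 by edgeR), and without FNI replicate 3 it was 0.66. CTSS codes for cathepsin S, a protease that trims the invariant chain. CTSS was at 87.5, 133 and 25.1 CPM in the FNI libraries and at 184, 550 and 216 CPM in the FNI+I-125 libraries. It had the largest difference of the 10 genes, at 3.87-fold (log2 fold change 1.95, SE 0.71, unadjusted p of 0.0334 and adjusted p of 0.281 by edgeR). FNI+I-125 replicate 2 carried much of it, and without that library the log2 fold change of CTSS was 1.26 with an unadjusted p of 0.118.

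**Figure D2:**
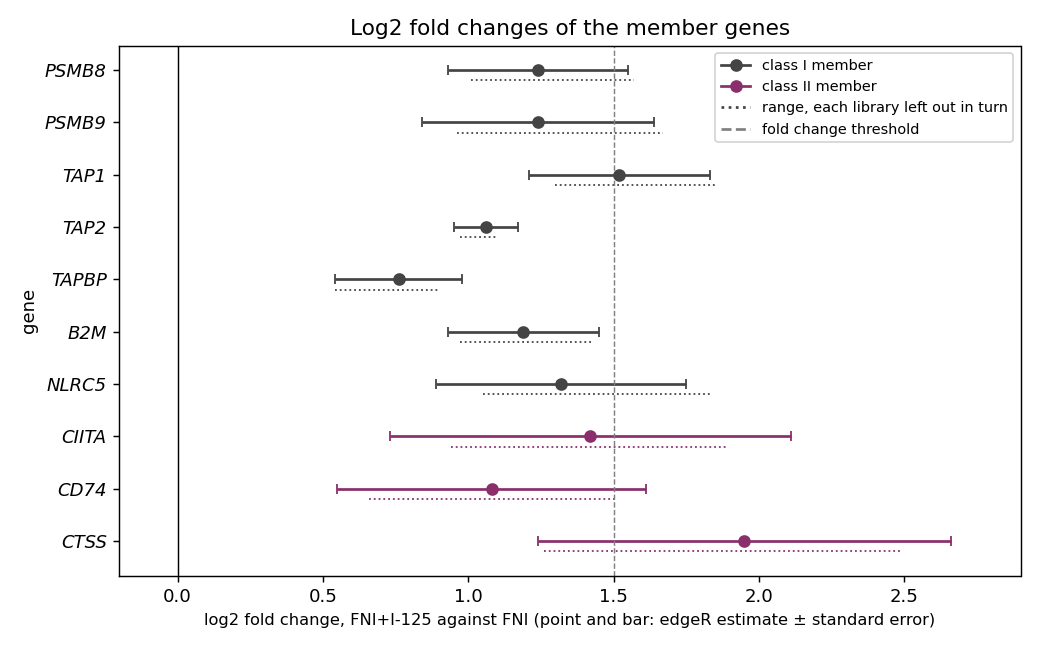
Log2 fold change of FNI+I-125 against FNI for each of the 10 genes (points) with 1 SE on either side (bars) from edgeR, class I in grey and class II in purple. Dotted lines span the values with each library left out in turn, and the dashed line marks the threshold of 1.5. The 10 points lie between 0.76 and 1.95, and the class II bars are longer than the class I bars.

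The median log2 fold change was 1.24 over the 7 class I genes, from 0.76 to 1.52, and 1.42 over the 3 class II genes, from 1.08 to 1.95. The median of all 14003 genes tested was 0.01. The order of the classes turned without FNI+I-125 replicate 1, with medians of 1.26 for class I and 0.96 for class II, and without FNI replicate 3, with medians of 1.04 and 0.94. An unadjusted p under 0.05 was reached by 7 of 7 class I genes and by CTSS alone among the class II genes. The SE of the log2 fold change was 0.11 to 0.43 for class I and 0.53 to 0.71 for class II. In the FNI group, the SD of log2(CPM + 1) was 0.05 to 0.65 for class I genes and 1.12 to 1.28 for class II genes, so the ranges did not meet. In the FNI+I-125 group they overlapped, at 0.11 to 0.48 for class I and 0.31 to 0.85 for class II. FNI replicate 3 was the lowest FNI library for 9 of the 10 genes, and FNI replicate 2 was the highest for 8 of the 10. The median log2(CPM + 1) of class II genes was 6.47, 7.06 and 4.71 in FNI replicates 1, 2 and 3, while that of class I genes was 4.67, 4.88 and 4.41. With only 3 class II genes, their median was the value of CTSS in every library. A test of the difference between the classes was not made, since genes are not replicates.

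The inducible proteasome subunits were then set against the constitutive subunits whose places they take, within each library. The constitutive subunits differed little, with log2 fold changes of 0.20 for PSMB5, 0.07 for PSMB6 and 0.18 for PSMB7, and overlapping groups for each. The log2 ratio of PSMB8 to PSMB5 was -1.94, -1.37 and -2.10 in the FNI libraries, against -0.66, -0.56 and -1.09 after seed implantation, a difference of 2.05-fold. The log2 ratio of PSMB9 to PSMB6 was -3.17, -2.51 and -3.66 in the FNI libraries, against -1.86, -1.86 and -2.18 after seed implantation, a difference of 2.21-fold. For PSMB10, the remaining inducible subunit, the difference in the ratio to PSMB7 was smaller, at 1.35-fold. All 3 ratios were higher in each FNI+I-125 library than in each FNI library, with p = 0.1 by the two-sided exact permutation test and 0.1 after adjustment over the 3 ratios, the smallest that 3 against 3 libraries allow. The ratios are of mRNA and not of assembled proteasomes, and transcript length keeps their absolute size from being read.

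**Figure D3:**
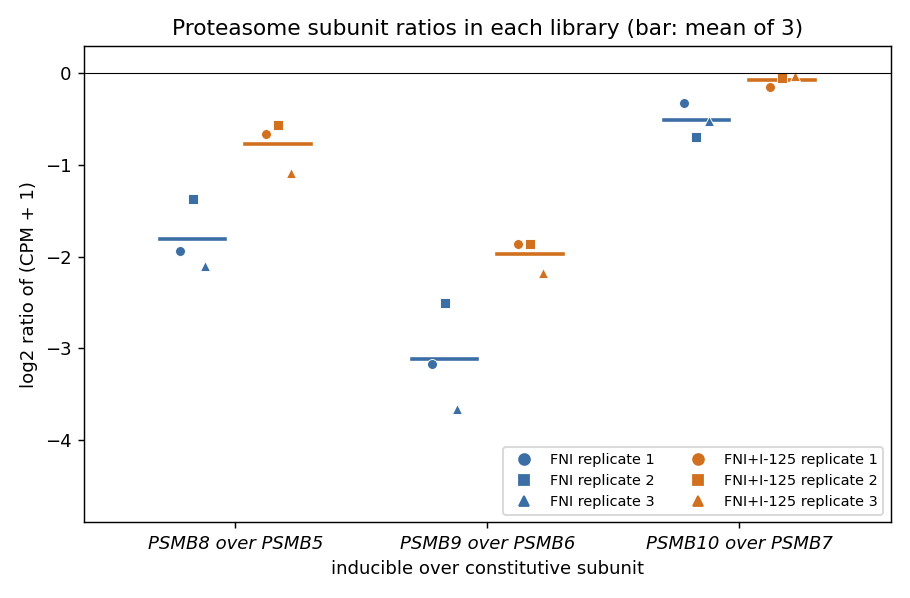
Log2 ratio of each inducible proteasome subunit to the constitutive subunit it replaces, computed on CPM + 1, with 1 point per library, FNI in blue and FNI+I-125 in orange, and a bar at the group mean. For all 3 pairs the FNI+I-125 libraries lie above the FNI libraries, with differences of 1.03 for PSMB8 over PSMB5, 1.15 for PSMB9 over PSMB6 and 0.43 for PSMB10 over PSMB7.

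Of 18 other class I pathway genes tested, 15 had higher and 3 had lower means with the seed than without it. Of these 18, 6 were higher at an unadjusted p under 0.05 by edgeR, against 9.23% of all genes tested. The median log2 fold change of the 18 was 0.38. PSMB10 was at 22.5, 20.7 and 22.0 CPM in the FNI libraries and at 28.8, 40.0 and 32.7 CPM in the FNI+I-125 libraries (log2 fold change 0.64, SE 0.16, unadjusted p of 0.00695 and adjusted p of 0.280 by edgeR). POMP, a chaperone of proteasome assembly, had a log2 fold change of 0.58. PSME1, a subunit of the interferon-inducible proteasome activator, had 0.68, and TPP2, a cytosolic peptidase, had 0.58. The largest log2 fold change of these 18 genes was 0.94 (SE 0.33) for HSPA5, a chaperone of the endoplasmic reticulum, which is above that of TAPBP. CALR, a chaperone of the loading complex, had at most 4 counts in a library in these files and was too low for the test. HSPA5 had 4568 to 14522 counts, and why CALR was so low in these files was not tested.

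RLA-A3, a rabbit class I heavy chain, did not separate the groups. It was at 199, 229 and 312 CPM in the FNI libraries and at 232, 452 and 246 CPM in the FNI+I-125 libraries, with a log2 fold change of 0.33 (SE 0.32, unadjusted p of 0.346 and adjusted p of 0.589 by edgeR). Class I heavy chains form a multigene family whose reads can be split or lost between near-identical copies, so the value of RLA-A3 is uncertain. It was highest in the FNI group in replicate 3, the library that was lowest there for B2M.

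Of 8 other class II pathway genes tested, 8 were higher, with a median log2 fold change of 1.28. By edgeR, 5 of them had an unadjusted p under 0.05, against 9.23% of all genes tested that were higher at that p. For 6 of the 8 the groups were apart, against 14.8% of all genes tested that separated toward higher values. The groups overlapped for the proteases LGMN, with a log2 fold change of 0.62 (SE 0.34), and CTSD, with 1.28 (SE 0.61). RLA-DMA and RLA-DMB code for the exchanger that removes the last invariant chain peptide from class II molecules. RLA-DMA was at 37.4, 34.0 and 8.57 CPM in the FNI libraries and at 66.9, 70.6 and 70.6 CPM in the FNI+I-125 libraries, with a log2 fold change of 1.38 (SE 0.52). That of RLA-DMB was 1.53 (SE 0.59). CTSB, a lysosomal protease, had a log2 fold change of 1.31, and SPPL2A, which clears the last membrane piece of the invariant chain, had 0.60. The class II chains RLA-DRB1 and RLA-DR-ALPHA had log2 fold changes of 1.31 (SE 0.53) and 1.17 (SE 0.54). RLA-DRB1 was at 265, 225 and 64.8 CPM in the FNI libraries and at 542, 513 and 324 CPM in the FNI+I-125 libraries. As for CIITA and CD74, the low library was FNI replicate 3. RLA-DRB1 also belongs to a multigene family, so its reads may be shared with related chains.

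The DNA-binding proteins that recruit NLRC5 and CIITA to their promoters did not separate the groups. Of the 7 genes of the shared enhanceosome, 3 were higher and 4 were lower, 0 had an unadjusted p under 0.05 by edgeR, and the groups separated for 0. Of all 14003 genes tested, 1293 were higher and 1082 lower at that p. The groups separated toward higher values for 2076 genes and toward lower values for 1729. Most genes tested thus did not separate either, and these counts alone do not set the 7 genes apart. RFX5 was at 30.7, 29.0 and 20.7 CPM in the FNI libraries and at 29.8, 31.7 and 29.7 CPM in the FNI+I-125 libraries. The log2 fold changes were 0.18 (SE 0.18) for RFX5, 0.20 (SE 0.12) for NFYA, 0.16 (SE 0.14) for CREB1 and -0.11 (SE 0.11) for NFYC.

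In interferon signalling, 11 of the 12 genes tested were higher and 1 was lower, with a median log2 fold change of 0.62. Of the 11, 6 had an unadjusted p under 0.05 by edgeR, against 9.23% of all genes tested that were higher at that p. IRF1, an interferon-induced factor that acts on class I and CIITA promoters, was at 43.4, 58.6 and 28.8 CPM in the FNI libraries and at 144, 92.0 and 75.3 CPM in the FNI+I-125 libraries. For IRF1 the log2 fold change was 1.25 (SE 0.35, unadjusted p of 0.0114 and adjusted p of 0.280 by edgeR), and its groups did not overlap. JAK2, STAT2 and the receptor chain IFNGR1 had log2 fold changes of 0.63, 0.46 and 0.51. The mRNA of interferon gamma itself, IFNG, was too low for the test, with 0 counts in each FNI library, which allows up to 3 counts per library, and with 6, 15 and 2 counts, in replicate order, in the FNI+I-125 libraries. The 2 counts of replicate 3 are within what 0 counts allow, so IFNG was above that limit in 2 of the 3 FNI+I-125 libraries.

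**Figure D4:**
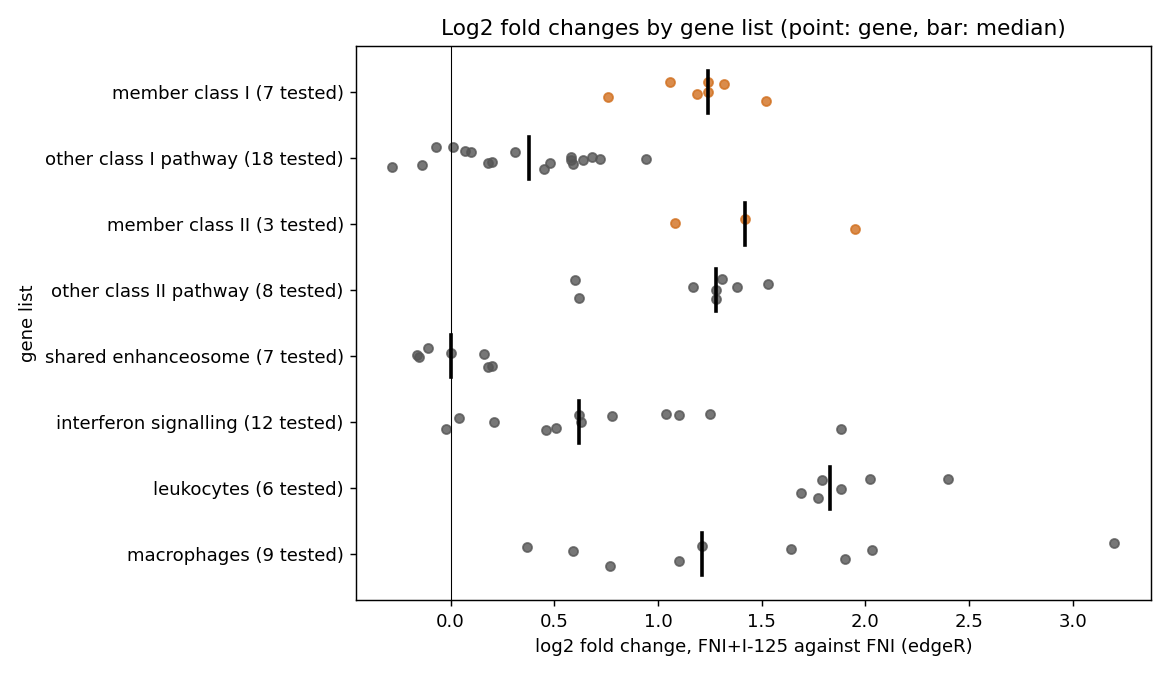
Log2 fold change of FNI+I-125 against FNI from edgeR for every tested gene (points) of the 10 genes (orange), of the other pathway lists and of the leukocyte and macrophage markers (grey), with a bar at the median of each list. The shared enhanceosome genes lie about 0, the other class I genes have a median of 0.38, and both class II lists have medians above 1.

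Markers of leukocytes moved with these genes. In whole tissue, more cells of a type and more RNA per cell cannot be told apart. Of 6 leukocyte markers, 6 were higher with the seed, without overlap, against 14.8% of all genes tested that separated toward higher values. The 6 markers had a median log2 fold change of 1.83. Their summed level was 117 to 788 CPM in the FNI libraries and 1477 to 2425 CPM in the FNI+I-125 libraries. Of 9 macrophage markers tested, 9 were higher, 6 of them without overlap, against the same 14.8% of all genes tested, and the rest overlapped. Only 3 of the 9 had an unadjusted p under 0.05 by edgeR, against 9.23% of all genes tested that were higher at that p. The summed level of the macrophage markers was 295 to 1050 CPM against 1241 to 1852 CPM. Dendritic cell markers summed to 16.1 to 40.1 CPM against 41.6 to 84.4 CPM, and B cell markers to 9.75 to 22.5 CPM against 23.2 to 36.1 CPM. T cell markers overlapped, at 2.72 to 22.4 CPM against 17.6 to 60.6 CPM, as did neutrophil markers, at 6.44 to 77.3 CPM against 33.4 to 1203 CPM. In each of these 6 lists, 0 markers were at 0 counts in every library. FNI replicate 3 was also the lowest library for the leukocyte marker PTPRC, at 10.8 CPM against 41.5 and 66.4 CPM in the other FNI libraries. The part of leukocyte number in the values of the 10 genes was not tested.

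**Figure D5:**
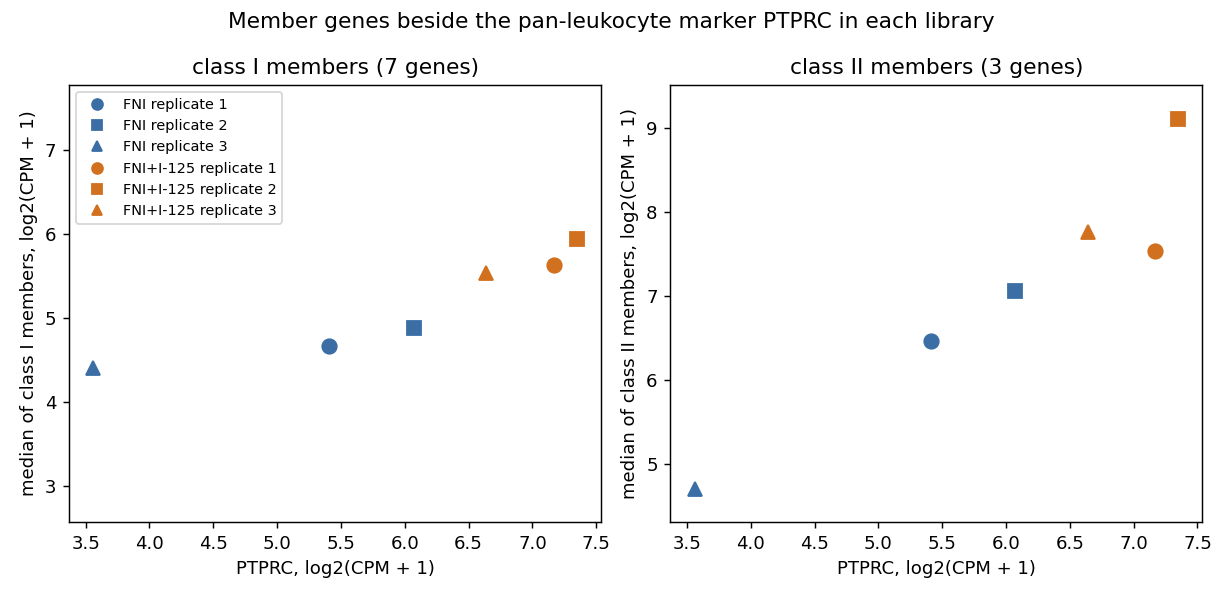
Median log2(CPM + 1) of the class I genes and of the class II genes in each library (vertical axes) against the log2(CPM + 1) of the leukocyte marker PTPRC (horizontal axes), FNI in blue and FNI+I-125 in orange. FNI replicate 3 has the lowest PTPRC level and the lowest class II median, 4.71, while its class I median of 4.41 is near those of the other FNI libraries. The class II median is the value of CTSS alone in every library.

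Relative to PTPRC, which codes for the pan-leukocyte protein CD45 and had a log2 fold change of 1.77 (SE 0.63), 9 of the 10 genes had lower means with the seed, while relative to the macrophage marker CSF1R, with a log2 fold change of 0.77 (SE 0.45), 9 of the 10 were higher. A gene with a smaller log2 difference than PTPRC is lower by this ratio, so the direction follows from the fold changes given above. The log2 ratio to PTPRC was lower in the FNI+I-125 group for 7 of 7 class I genes, by differences of -1.25 to -0.51. For 3 of them, PSMB8, PSMB9 and B2M, the groups did not overlap. Among class II genes the log2 ratio to PTPRC was lower for CIITA and CD74, at -0.47 and -0.74, and level for CTSS, at 0.01. The share of all genes tested with lower or separated ratios to PTPRC was not computed. With CSF1R in place of PTPRC, the median difference was 0.24 for class I and 0.62 for class II. By the ratio to CSF1R the groups were apart for 0 of 7 class I genes and for 2 of 3 class II genes, CD74 and CTSS. With the mean of the 6 leukocyte markers as the reference, the ratio was lower for 10 of the 10 genes, with median differences of -1.02 for class I and -0.65 for class II. The direction of these ratios therefore depends on the reference used. Their size depends on single libraries, since the median difference to PTPRC was -0.84 for class I and -0.27 without FNI replicate 3, and -0.47 for class II and -0.76 without FNI+I-125 replicate 1. The class I ratios to PTPRC were highest in FNI replicate 3, where the median was 0.85, against -0.74 and -1.19 in the other FNI libraries and -1.54 to -1.09 in the FNI+I-125 libraries. The class II median, which is the ratio of CTSS alone, did not stand out there, at 1.15 against 1.06 and 0.99. In FNI replicates 1, 2 and 3 the log2 ratio to PTPRC was -1.08, -1.36 and -1.23 for CIITA and 4.64, 4.37 and 4.79 for CD74.

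The profiles of both classes over the 6 libraries were compared with those of all genes tested, as a description, since the libraries share their group difference and their tissue mix. With the mean log2 level of the class I genes, Pearson's r over 6 libraries was highest outside the lists for CALHM6, at 0.999, COX17, a copper chaperone, at 0.997, and GBE1, the glycogen branching enzyme, at 0.995. With that of the class II genes it was highest for DRAM1 at 0.999, IL32 at 0.999 and INPP5D, a phosphatase of blood cells, at 0.998. CALHM6 was at 1.35, 3.34 and 0.650 CPM in the FNI libraries and at 12.0, 17.4 and 7.40 CPM in the FNI+I-125 libraries. Pearson's r does not measure the size of a difference. The log2 fold changes were 2.79 (SE 0.67) for CALHM6, 0.71 (SE 0.16) for COX17 and only 0.23 (SE 0.11) for GBE1. PTPRC ranked 13 among 14003 genes by likeness to the class II profile (r = 0.995 over 6 libraries) and 276 by likeness to the class I profile (r = 0.944).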

How the data were processed

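RNA-seq of injured facial nerves was analysed in 3 FNI and 3 FNI+I-125 libraries, 1 per rabbit. The authors deposited 1 file of raw counts per library, as whole numbers per gene without normalization. Per the labels, mRNA libraries were made with a stranded kit, and the submitters' processing notes name HISAT2 and the build OryCun2.0. The counting program, its strand setting and the annotation are not given in the sources used here, so reads of overlapping genes may be shared. The labels and the study's methods name different RNA extraction reagents. The files list 17396 genes. Of these, 2992 are LOC numbers, and 542 were given symbols from the RefSeq table of mOryCun1.1, among them PSMB7. Another 25 identifiers are spreadsheet dates with 0.188% of the counts.

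FNI+I-125 was compared with FNI in R 4.3.3 with edgeR 4.0.16 (glmQLFit and glmQLFTest, TMM, filterByExpr with a minimum count of 10). Tests were two-sided and p-values were adjusted by Benjamini-Hochberg over the 14003 genes kept. All 10 genes passed the filter. The threshold was an adjusted p under 0.05 and a log2 fold change of at least 1.5 in size. The biological coefficient of variation was 43%. CPM used TMM-scaled library sizes, and log2 levels and ratios a pseudocount of 1. At this depth, 0 counts allow up to 3 counts, for counting error only. Single values were compared by the exact permutation test, whose smallest p is 0.1. The code was tested on simulated data.

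The alternatives were DESeq2 1.42.0, limma-voom (limma 3.58.1), other scalings and filters, a block for the replicate number, and each library left out in turn. The 10 genes and all lists were chosen with earlier results of these data known. By rule, the text names the 10 genes, the 4 genes with the smallest p in each pathway list, the proteasome subunits, IFNG, IRF1, PTPRC, CSF1R, up to 4 rabbit class I or class II chains, and the 3 genes outside the lists most like each class profile. The rule also takes 1 more gene, which is not reported here. CALR, HSPA5, LGMN and CTSD were chosen after their values were seen.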

Additional observations from a re-analysis of the deposited data

How the results depend on the processing

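The log2 fold changes of the 10 genes were positive in all 15 alternatives, and 0 of the 10 genes were called by limma-voom or by edgeR under any scaling or filter tried. With DESeq2, 289 genes were called higher and 175 lower, and 1 of the 10 genes was called, TAP1 at a log2 fold change of 1.51 (adjusted p = 0.00155 by DESeq2). PSMB8, TAP2 and B2M had an adjusted p under 0.05 by DESeq2 with log2 fold changes of 1.23, 1.05 and 1.18. With 1 library left out at a time, 0 to 38 genes were called higher and 0 to 2 lower, both highest values being without FNI+I-125 replicate 3. The number of the 10 genes at an unadjusted p under 0.05 then ran from 5, without FNI replicate 1 or without FNI+I-125 replicate 2, to 9, without FNI replicate 2, while 6.00% to 8.20% of all genes tested in these fits were higher at that p. The median log2 fold change of the class I genes ran from 0.98, without FNI+I-125 replicate 2, to 1.57, without FNI replicate 2. That of the class II genes ran from 0.94, without FNI replicate 3, to 1.89, without FNI replicate 2. The order of the class medians turned without FNI replicate 3, where class I was at 1.04, and without FNI+I-125 replicate 1, where class I was at 1.26 and class II at 0.96. CSF1R in place of PTPRC moved the median log2 ratios to 0.24 for class I and 0.62 for class II. The deviations of same-numbered libraries from their group means had correlations of 0.05, -0.19 and -0.14. Those of differently numbered libraries ran from -0.29 to 0.3. Deviations from a mean of 3 libraries are tied to each other, so these values cannot decide whether the replicate numbers pair rabbits. With the replicate block, 0 of the 10 genes were called and 9 had an unadjusted p under 0.05, with class medians of 1.27 and 1.68. The cause of these shifts was not tested. IFNG and CALR were too low for the test, with at most 15 and 4 counts in a library.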
